A study of Mus musculus with 6 samples.

Results

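The 10 genes described here are WNT target and feedback genes: Axin2, Nkd1, Notum, Lgr5, Rnf43, Znrf3, Ascl2, Sox9, Tcf7 and Lef1. They were chosen by name, with earlier results of these data known. All 10 were found among the 52249 genes of the deposited count table. The table holds 6 libraries of 3′ mRNA sequencing from mouse intestinal organoids, epithelial cultures grown from the gut. The organoids of all 6 libraries carried an Apc knockout. Of these, 3 libraries had that knockout alone (control) and 3 also had IGF2BP3 overexpression (OE-labelled). IGF2BP3 is an RNA-binding protein, and the study concerns its role in adenoma cells and MYC expression. The labels give no strain, age, culture time, overexpression vector or number of animals or clones. Nothing in them says that the libraries of a group came from separate cultures. The p-values below therefore measure the spread between these libraries, which may be technical. Pairs of control libraries differed little beyond counting error (chi-square per degree of freedom 1.2 to 1.35). Pairs of OE-labelled libraries differed more (4.38 to 8.31).

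In the absence of WNT, a complex of APC, AXIN and kinases marks beta-catenin for destruction. When WNT binds its receptors, or when APC is lost, beta-catenin accumulates, enters the nucleus and activates genes together with TCF and LEF factors. Many of these targets feed back on the pathway: AXIN2 rebuilds the destruction complex, NKD1 binds Dishevelled, NOTUM inactivates WNT proteins outside the cell, and RNF43 and ZNRF3 remove the Frizzled receptors that WNT binds. In the crypt of the intestine the same targets include LGR5 and ASCL2 of the stem cells and SOX9 of the crypt base.

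Library totals ran from 2180116 to 2519917 counts. The floor of 3 counts used below for detection therefore lay between 1.18 and 1.41 CPM (counts scaled to a common library size, here with TMM library factors), and covers counting error only. Igf2bp3 had 0 or 1 count in every library of either group, so its counts gave no check of the OE label. The epithelial markers Epcam, Cdh1, Krt8, Krt18, Krt19, Vil1, Cdx2 and Lgals4 were all detected. The 10 listed fibroblast and smooth muscle markers summed to at most 1.88 CPM in any library, the 6 endothelial markers to at most 1.38 CPM, and of the 11 immune markers 7 had 0 counts throughout. Lymphocytes also use Tcf7 and Lef1; Cd3d, Cd3e, Cd3g and Cd79a were at 0, while Cd79b and Ptprc had 0 to 2 counts in each library. Of the remaining immune markers, Itgam had at most 5 counts and Csf1r was well detected. The library names form a separate series for each group, so a library series and the OE label cannot be told apart in any comparison here. No library with intact Apc was analysed here.

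Of the 10 genes, 7 had enough counts to be tested, and Sox9 and Ascl2 rose in the OE-labelled libraries. None of the 7 fell, but the count filter bears on both statements. Ascl2 met it only through its OE-labelled libraries, as control replicate 2 had 1 count. Notum, which missed it, was lower in a fit without the filter (log2 change -1.01, edgeR adjusted p = 0.12). Sox9, by far the most abundant of the 10, rose 1.5-fold and Ascl2, which is near the bottom of the expressed range, 2.87-fold. The count of 2 of 7 stands against 29.2% of all 10687 tested genes that passed the same test in either direction and 16.5% that were higher (edgeR quasi-likelihood test, Benjamini-Hochberg adjusted p below 0.05 over all tested genes). The median log2 fold change of the 7 was 0.23, beside 0.04 for all tested genes. The median of the members was 0.015 with an offset for GC content and -0.021 with that offset and a replicate block. It was 0.09, 0.064 and 0.033 in the fits without control replicate 1, OE replicate 2 and OE replicate 3, which tested 8 members. In the same fits the median of all tested genes was 0.004, -0.002, 0.047, 0.001 and 0.023, in that order. Without control replicate 2, control replicate 3 or OE replicate 1 the members gave 0.18, 0.191 and 0.207. Sox9 and Ascl2 were also the 2 tested members whose groups did not overlap, beside 45.7% of all tested genes without overlap in either direction and 25.3% without overlap and higher under the OE label. The 5 others, Axin2, Lgr5, Rnf43, Znrf3 and Tcf7, had overlapping groups. Nkd1, Notum and Lef1 had too few counts for the fit.

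The levels of the 10 genes spanned a wide range. Because the 3′ kit reads a transcript near its end, CPM values of different genes are set side by side without division by transcript length. In the control libraries the mean level was 343.3 CPM for Sox9, 38.45 for Rnf43, 21.65 for Axin2, 21.33 for Znrf3, 8.35 for Lgr5, 5.11 for Notum, 4.64 for Tcf7, 3.54 for Ascl2, 0.466 for Lef1 and 0 for Nkd1 (n = 3). Axin2 and Znrf3 lay within each other's spread, as did Notum, Tcf7 and Ascl2, whereas the steps from Sox9 to Rnf43, from Rnf43 to Axin2, from Znrf3 to Lgr5 and from Lgr5 to Notum exceeded the ranges of the control libraries. Sox9 held 74.7% to 78.9% of the summed CPM of the 10 genes in control and 77.3% to 86.6% in OE-labelled libraries. Without Sox9 the summed level ran from 94.02 to 112.9 CPM in control and from 89.94 to 128.9 CPM under the OE label, and these ranges overlapped. Ranked by mean level among all tested genes, Sox9 lay at percentile 97.2, Rnf43 at 59.6, Ascl2 at 9.6 and Tcf7 at 1.9.

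**Figure D1:**
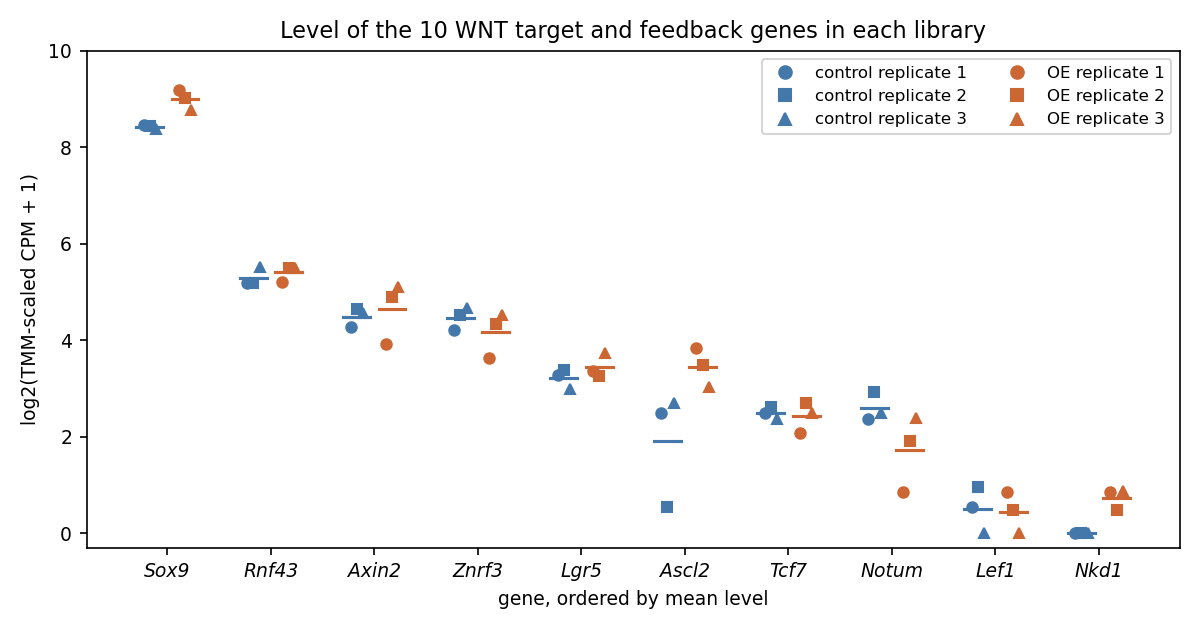
Level of each of the 10 genes in each library, as log2(TMM-scaled CPM + 1), with genes ordered by mean level along the horizontal axis. Points are libraries (blue control, orange OE-labelled, symbol by replicate) and bars are group means (n = 3). Sox9 and Ascl2 have groups that do not overlap among the tested genes, and Lef1 and Nkd1 lie at the floor.

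The promoters of these genes were looked at for the letters CTTTGA and CTTTGT, on both strands, which form the core of sites bound by TCF and LEF factors. RefSeq promoter windows (GRCm38.p6, 250 bases before to 50 bases after a start site) were matched for 6 of the 10 genes, in 11 windows. Axin2, Nkd1, Rnf43, Ascl2, Tcf7 and Lef1 were matched; Notum, Lgr5, Znrf3 and Sox9 were not. Of all 32851 windows, 16% held CTTTGA and 18.7% held CTTTGT, and 31.2% held at least 1 of them. Among the 11 windows, 1 of the 4 windows of Lef1 held them and the other 10 did not. That window starts at 131156044, inside the annotated gene, which starts at 131110471, so it belongs to an internal start site. The only Nkd1 window starts at 88527383, also inside its annotated gene, which starts at 88521354. Rnf43 windows 1 and 2, Tcf7 window 2 and Lef1 window 3 lie inside their annotated genes as well. Windows 1 and 2 of Lef1 overlap, so the 11 are not all separate. The absence of these letters says nothing about sites elsewhere in a gene. Shown are the 250 bases before the start of Ascl2, the gene with the largest fold change, those of Axin2, the standard readout of the pathway, and the stretch of the Lef1 window with the matches. They are written 5′ to 3′ on the gene's strand, with matches in capitals (TCAAAG and ACAAAG are CTTTGA and CTTTGT read on the other strand).
Ascl2, chr7:142969265-142969514, minus strand: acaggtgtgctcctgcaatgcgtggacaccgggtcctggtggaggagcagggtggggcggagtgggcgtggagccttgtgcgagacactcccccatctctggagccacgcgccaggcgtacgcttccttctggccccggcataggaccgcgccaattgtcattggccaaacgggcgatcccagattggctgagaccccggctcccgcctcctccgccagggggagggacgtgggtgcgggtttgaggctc
Axin2, chr11:108920099-108920348, plus strand: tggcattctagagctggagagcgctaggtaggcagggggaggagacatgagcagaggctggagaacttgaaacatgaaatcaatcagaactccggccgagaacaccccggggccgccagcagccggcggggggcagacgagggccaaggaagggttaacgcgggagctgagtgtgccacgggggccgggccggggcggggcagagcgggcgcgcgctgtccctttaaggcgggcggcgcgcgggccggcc
Lef1, chr3:131156104-131156189, plus strand: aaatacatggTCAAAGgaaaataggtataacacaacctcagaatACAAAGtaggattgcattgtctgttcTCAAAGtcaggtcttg

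Both members that rose encode transcription factors. Sox9 (ENSMUSG00000000567, plus strand of chromosome 11, 112782224 to 112787760 in GRCm38) encodes an HMG-box factor of crypt base stem and Paneth cells. It stood at 351.2, 345.8 and 333.1 CPM in control and 581.4, 520.2 and 439.3 CPM under the OE label, replicates 1 to 3. Every OE-labelled library lay above every control library, and the OE-labelled libraries differed more among themselves than the control libraries did (SD 71.3 against 9.28 CPM, n = 3 each). The estimated log2 fold change, 0.58, had an SE of 0.11 (95% interval 0.33 to 0.83, edgeR adjusted p = 0.00277). Sox9 passed in each of the 21 alternatives run for it, with log2 fold changes from 0.43 to 0.83. It overlaps no other annotated gene.

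Ascl2 (ENSMUSG00000009248, minus strand of chromosome 7, 142966829 to 142969264) encodes the basic helix-loop-helix factor that maintains LGR5 stem cells. It had 10, 1 and 12 counts in control and 33, 26 and 17 counts under the OE label, which is 4.61, 0.469 and 5.53 CPM against 13.37, 10.22 and 7.19 CPM. The groups did not overlap, but control replicate 2 fell under the floor of 3 counts and stood apart from the other controls. The estimated log2 fold change, 1.52, had an SE of 0.47 (95% interval 0.50 to 2.54, edgeR adjusted p = 0.0292). The call was lost in 7 of 20 alternatives, among them the fits without control replicate 1 (adjusted p = 0.065), control replicate 2 (log2 fold change 1.01, 0.089), OE replicate 1 (0.0521) or OE replicate 2 (0.084), DESeq2 (0.0512) and the GC offset (0.0718), with a range over all alternatives from 0.000545 to 0.089 (edgeR unless named). Its direction held in all 20.

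Tcf7 and Lef1 encode DNA-binding partners of beta-catenin and are WNT targets themselves. Tcf7 (ENSMUSG00000000782, minus strand of chromosome 11, 52252371 to 52283014) had 10, 11 and 9 counts in control and 8, 14 and 11 under the OE label. The control values lay inside the OE-labelled range, and the log2 fold change of -0.05 had a 95% interval from -0.80 to 0.70 (edgeR adjusted p = 0.931). That is from 0.573 to 1.62 times the control level, and a change within those limits is not excluded. Lef1 (ENSMUSG00000027985, plus strand of chromosome 3, 131110471 to 131224356) had 1, 2 and 0 counts in control and 2, 1 and 0 under the OE label, all under the floor. Their relative Tcf7l2, the main TCF factor of the intestinal epithelium, stood at 232 ± 8.99 CPM in control and 172 ± 21.4 CPM under the OE label (SD, n = 3), a log2 change of -0.43 (SE 0.12, edgeR adjusted p = 0.0146), a call lost when any 1 of the 3 control libraries was left out. Tcf7l1 had at most 5 counts in any library. The TCF and LEF transcripts of these organoids were therefore almost all Tcf7l2 in either group. Tcf7 and Lef1 each overlap 1 annotated gene on either strand, and the strand setting of the counting is not given in the sources used here.

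**Figure D2:**
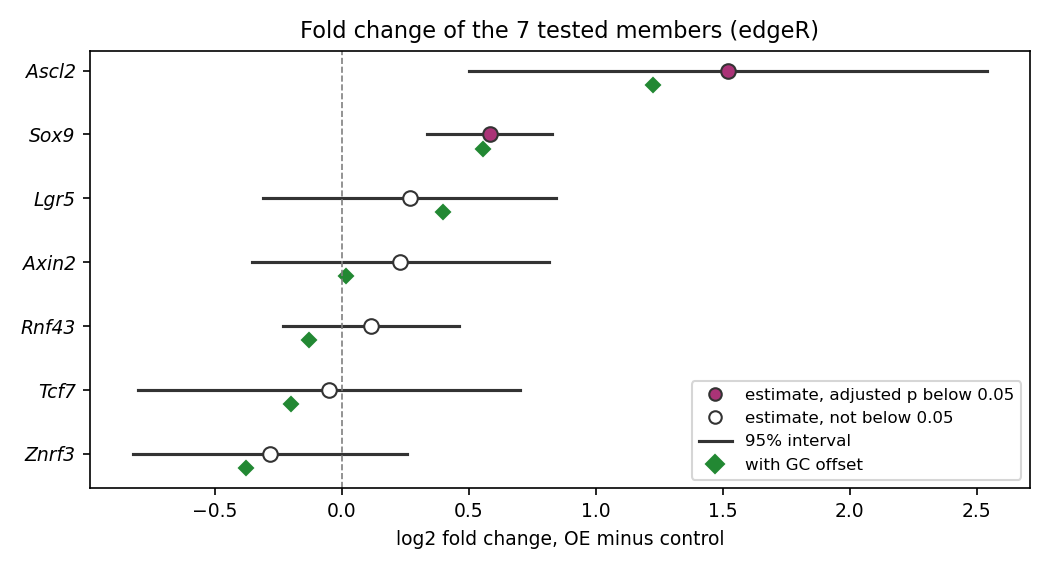
Log2 fold change (OE-labelled minus control) of the 7 tested genes from edgeR, with 95% intervals; filled circles passed an adjusted p of 0.05 and open circles did not. Green diamonds give the estimate with a per-library offset for GC content, with which Ascl2 moved from 1.52 to 1.23 and Axin2 from 0.23 to 0.02.

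Of the intracellular feedback genes, Axin2 had overlapping groups and Nkd1 lay under the floor. Axin2 (ENSMUSG00000000142, plus strand of chromosome 11, 108920349 to 108950783), the most widely used readout of beta-catenin activity, stood at 18.43, 23.93 and 22.58 CPM in control and 14.18, 28.71 and 33.4 CPM under the OE label. OE replicate 1 lay below all controls, while replicates 2 and 3 lay above them. The estimated log2 fold change, 0.23, had an SE of 0.27 (95% interval -0.36 to 0.82, edgeR adjusted p = 0.553), an interval that runs from 0.781 to 1.76 times the control level. Without OE replicate 1 it was 0.46 (edgeR adjusted p = 0.0711), in a range of adjusted p from there to 0.991. Axin1, its constitutive relative in the destruction complex, stood at 40.2 ± 3.41 CPM in control and 37.7 ± 3.88 CPM under the OE label (SD, n = 3). Axin2 overlaps 1 annotated gene on the opposite strand.

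Nkd1 (ENSMUSG00000031661, plus strand of chromosome 8, 88521354 to 88594884) had 0 counts in each control library and 2, 1 and 2 counts under the OE label. With every library below 3 counts, fold changes are not given, and a count of 0 allows a level of up to 1.41 CPM. Nkd2 had 1 or 2 counts in every library. Neither Naked gene was thus detectable in these Apc-knockout organoids at this depth.

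Notum (ENSMUSG00000042988, minus strand of chromosome 11, 120653788 to 120661175) encodes the secreted enzyme that strips the lipid from WNT proteins. It had 9, 14 and 10 counts in control and 2, 7 and 10 under the OE label, which is 4.15, 6.57 and 4.61 CPM against 0.81, 2.75 and 4.23 CPM. OE replicate 3 lay inside the control range, replicate 2 below it, and replicate 1 under the floor. Notum missed the count filter. In a fit without the filter its log2 change was -1.01 (SE 0.46, 95% interval -1.90 to -0.11) with an adjusted p of 0.12 in edgeR, and -1.02 in DESeq2, which gave no adjusted p for it. It overlaps 2 annotated genes on the opposite strand, 1 of them its own antisense transcript Notumos.

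The receptor-level genes also had overlapping groups. Lgr5 (ENSMUSG00000020140, minus strand of chromosome 10, 115450311 to 115587780), the R-spondin receptor that marks crypt base stem cells, stood at 8.76, 9.38 and 6.91 CPM in control and 9.32, 8.65 and 12.26 CPM under the OE label. Only OE replicate 3 lay above every control. The estimated log2 fold change, 0.27, had an SE of 0.27 (95% interval -0.31 to 0.84, edgeR adjusted p = 0.483). Lgr4, its broadly expressed relative, was more abundant, at 22.9 ± 2.57 and 23 ± 8.14 CPM (SD, n = 3), with a log2 fold change of 0.01 (edgeR adjusted p = 0.979), and Lgr6 had at most 2 counts.

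Rnf43 and Znrf3 encode related membrane ubiquitin ligases that are held in check by R-spondin and LGR receptors. Rnf43 (ENSMUSG00000034177, plus strand of chromosome 11, 87662722 to 87735539) stood at 35.49, 35.19 and 44.69 CPM in control and 36.06, 44.44 and 44.39 CPM under the OE label, with every OE-labelled value inside the control range. Its log2 change was 0.11 (SE 0.16, edgeR adjusted p = 0.628), and its 95% interval from -0.23 to 0.46 was the narrowest among the 5 members that did not pass. Znrf3 (ENSMUSG00000041961, minus strand of chromosome 11, 5276324 to 5444847) stood at 17.51, 22.05 and 24.42 CPM in control and 11.34, 19.27 and 21.98 CPM under the OE label. OE replicate 1 was the lowest of all 6, and the other OE-labelled libraries lay inside the control range (log2 fold change -0.28, SE 0.25, 95% interval -0.82 to 0.26, edgeR adjusted p = 0.418). The sign of Rnf43 became negative with an offset for GC content, at -0.13, and that of Znrf3 positive, at 0.11, with an offset for the GC content of the last 500 bases. Rnf43 overlaps 1 annotated gene on either strand, and Znrf3 overlaps none.

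The OE-labelled libraries did not move as a block. Among the 7 tested genes, OE replicate 1 had the lowest OE-labelled value for Axin2, Rnf43, Znrf3 and Tcf7 and the highest for Sox9 and Ascl2. Over all tested genes it was the lowest OE-labelled library in 36.8% and the highest in 36.3%. The coefficient of variation was larger among OE-labelled than among control libraries for 5 of the 7 genes, and for 67.2% of all tested genes. It was 39.4% against 13.2% for Axin2, 31.5% against 16.5% for Znrf3 and 13.9% against 2.7% for Sox9, beside medians over all tested genes of 15.9% and 10.5%. For Ascl2 the order was the other way, at 30.1% against 76.2%. Without OE replicate 1 the log2 fold change was 0.43 for Sox9 (edgeR adjusted p = 0.00165, in a range from 0.000179 to 0.0264), 1.23 for Ascl2 and -0.11 for Znrf3.

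**Figure D3:**
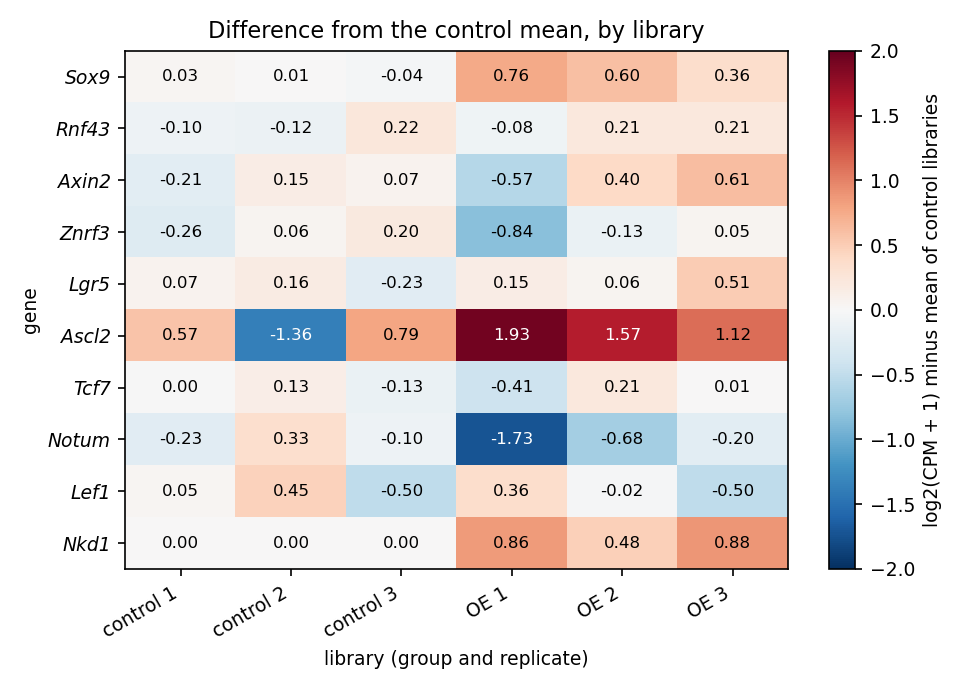
Difference of each library from the mean of the control libraries on the log2(CPM + 1) scale, for the 10 genes (rows, ordered by mean level) and 6 libraries (columns). In OE replicate 1 Axin2, Znrf3 and Notum lie at -0.57, -0.84 and -1.73 while Sox9 and Ascl2 lie at 0.76 and 1.93.

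Base composition and cell type markers moved with the groups and are given beside these results. Across 10679 tested genes with a sequence, which are not independent replicates, log2 fold change followed the GC content of the longest transcript with a Spearman rho of 0.37, and the median GC content was 53.6% for genes that rose and 45.7% for genes that fell. The GC content was 59.6% for Ascl2 and 49.3% for Sox9, beside a median of 49.7% over the tested genes. With the GC offset the log2 fold change was 0.55 for Sox9 (edgeR adjusted p = 0.00617) and 1.23 for Ascl2 (edgeR adjusted p = 0.0718). Sox9 is also used by Paneth cells and other secretory cells, and of the 15 secretory markers 8 were tested, of which 4 rose and 0 fell, beside 16.5% of all tested genes that were higher. Among its Paneth cell genes, Mmp7 rose from 32.44 ± 1.84 to 71.24 ± 14.1 CPM (SD, n = 3; log2 change 1.14, edgeR adjusted p = 0.000517), and Lyz1, Defa17 and Defa24 had 0 counts in every library. The other secretory genes that rose were Spink4, Tff3 and Fcgbp. The 4 tested that did not pass were Muc2, Clca1, Dclk1 and Spdef, with log2 changes of 0.24, 0.33, 0.22 and -0.25. Also untested were Chga, with 0 counts, and Atoh1 and Chgb, with at most 1 count in any library. Agr2, untested too, had 3, 6 and 8 counts in control and 5, 2 and 21 under the OE label. Of the 8 epithelial markers 5 rose and 0 fell, again beside 16.5% of all tested genes, with a summed level of 4563 to 4856 CPM in control and 6094 to 6885 CPM under the OE label. The immune marker Csf1r rose from 30.58 to 49.15 CPM (edgeR adjusted p = 0.0061), and mitochondrial ribosomal RNA made up 8.93% to 9.41% of control counts and 3.89% to 4.36% of the others. The summed level of the secretory list was 733 to 770.3 CPM in control and 1486 to 1698 CPM under the OE label. Most of that sum was Spink4, with a mean of 480.3 CPM in control and 1155 CPM under the OE label. Of the 8 crypt base stem cell markers, 4 of which are among the genes described here, 7 were tested. Of these, 1 rose, Ascl2, beside 16.5% of all tested genes that were higher. In bulk libraries, more cells of a type and more RNA per cell cannot be told apart, and the part of these markers, of base composition and of mitochondrial RNA in the rise of Sox9 and Ascl2 was not tested.

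The rest of the pathway was read from 5 lists that hold 115 further gene names, of which 113 were in the table and 65 were tested. The names not found, Sfrp3 and Aes, are second names of the listed Frzb and Tle5. Of the 65 tested genes, 14 rose, 13 fell and 38 did not pass, with a median log2 fold change of -0.03 beside 0.04 for all tested genes. With the GC offset 8 of the 65 were higher and 18 lower, beside 1276 higher and 1209 lower of all 10687 tested genes. The 27 calls of 65 genes stand against 29.2% of all tested genes, and the lists were chosen with earlier results of these data known.

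Ligands and their secretion genes moved in both directions. Of 21 genes 7 were tested. Of these, 4 rose and 2 fell (median log2 fold change 0.55), beside 16.5% and 12.7% of all tested genes. Wnt4, counted at 59.91, 58.17 and 60.35 CPM in control and 102.9, 114 and 120.1 CPM under the OE label, rose by 0.92 (SE 0.12, edgeR adjusted p = 0.000292). Wnt7b, the most abundant WNT gene, went from 188.9 ± 16.9 to 327.4 ± 38.6 CPM (SD, n = 3; log2 fold change 0.79, edgeR adjusted p = 0.000592). Wnt10a had 47, 47 and 37 counts in control and 24, 14 and 16 under the OE label, a change of -1.46 (SE 0.26, edgeR adjusted p = 0.00147). Wls, which carries WNT proteins to the cell surface, was lower by -0.47 (SE 0.11, edgeR adjusted p = 0.00729), a call that did not hold under the GC offset (-0.28, edgeR adjusted p = 0.101, in a range from 0.00129 to 0.108) and without control replicate 2. Wnt3, the WNT of Paneth cells, was among 8 ligand genes with 0 counts in all libraries.

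Among receptors, co-receptors and Dishevelled genes, 16 of 21 were tested. Of these, 1 rose and 4 fell (median log2 fold change -0.27), beside 16.5% and 12.7% of all tested genes. The genes that fell were the co-receptors Lrp5 and Lrp6, the receptor Fzd7 and the receptor-like kinase Ryk, whose call was lost without control replicate 1. Lrp5 stood at 87.57, 83.04 and 93.07 CPM in control and 34.44, 39.32 and 51.16 CPM under the OE label (log2 fold change -1.08, SE 0.15, edgeR adjusted p = 0.000439). Fzd7 went from 15.6 ± 2.85 to 4.6 ± 1.33 CPM (SD, n = 3; log2 fold change -1.75, edgeR adjusted p = 0.00104). The groups did not overlap for either gene, beside 20.5% of all tested genes without overlap and lower under the OE label. Both genes passed in all alternatives (21 for Lrp5 and 20 for Fzd7). Dvl1 rose by 0.45 (edgeR adjusted p = 0.0471), a call lost in 15 of 21 alternatives, all 6 fits that left out a library among them (adjusted p up to 0.543). Among the secreted inhibitors and R-spondins 14 of 20 genes had 0 counts in all libraries, Rspo1, Rspo2, Rspo3 and Rspo4 among them, and the 1 tested, Kremen1, did not pass (log2 fold change -0.28, edgeR adjusted p = 0.605).

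Of the nuclear partners of beta-catenin, with Ctnnb1 itself in the list, 19 of 21 were tested. Of these, 5 rose and 5 fell (median log2 fold change -0.04), beside 16.5% and 12.7% of all tested genes. Ctnnb1, which encodes beta-catenin, stood at 1504, 1528 and 1554 CPM in control and 2118, 2241 and 2188 CPM under the OE label, a log2 change of 0.51 (SE 0.08, edgeR adjusted p = 0.001). The groups were well apart, and the call held in all 21 alternatives (0.44 to 0.72). Ctnnb1 overlaps 1 annotated gene on its own strand and 2 on the other. Pygo2, a co-activator of the beta-catenin complex, rose by 0.67 (edgeR adjusted p = 0.00419), whereas Hmgxb4 and Chd8, a chromatin remodeller that represses beta-catenin targets, changed by -0.89 (edgeR adjusted p = 0.00132) and -0.63 (edgeR adjusted p = 0.00418). The Pygo2 call was lost with the replicate block and GC offset (0.39, edgeR adjusted p = 0.0519, in a range from 0.00058), and the Chd8 call with the transcript length offset (-0.40, edgeR adjusted p = 0.0513, in a range from 2.89e-05).

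Of 30 further WNT target genes, 22 were tested. These gave 4 rises and 2 falls (median log2 fold change 0.09), beside 16.5% and 12.7% of all tested genes. Gpx2, a gut glutathione peroxidase, went from 272.5 ± 20.5 to 480.3 ± 32.9 CPM (SD, n = 3; log2 fold change 0.82, edgeR adjusted p = 0.000257). Ephb3, the crypt guidance receptor, stood at 68.21, 80.69 and 64.04 CPM in control and 142.6, 125.8 and 84.98 CPM under the OE label (log2 fold change 0.73, SE 0.18, edgeR adjusted p = 0.00852), a call that did not hold under the GC offset (0.47, edgeR adjusted p = 0.0588, in a range up to 0.11), without control replicate 3 and without OE replicate 2. Vegfa, an angiogenic growth factor, changed by -0.77 (SE 0.10, edgeR adjusted p = 0.000324), and Tnfrsf12a by -0.61 (edgeR adjusted p = 0.041, lost in 7 of 21 alternatives, up to 0.12). The 16 others, with Ccnd1, Cd44, Ephb2 and Prox1 among them, did not pass. Ccnd1, the cyclin of G1, stood at 1797 CPM in control and 1550 CPM under the OE label (log2 fold change -0.21, edgeR adjusted p = 0.105), and Cd44 at 939 and 1094 CPM (0.22, edgeR adjusted p = 0.108), both picked for mention with their values known.

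**Figure D4:**
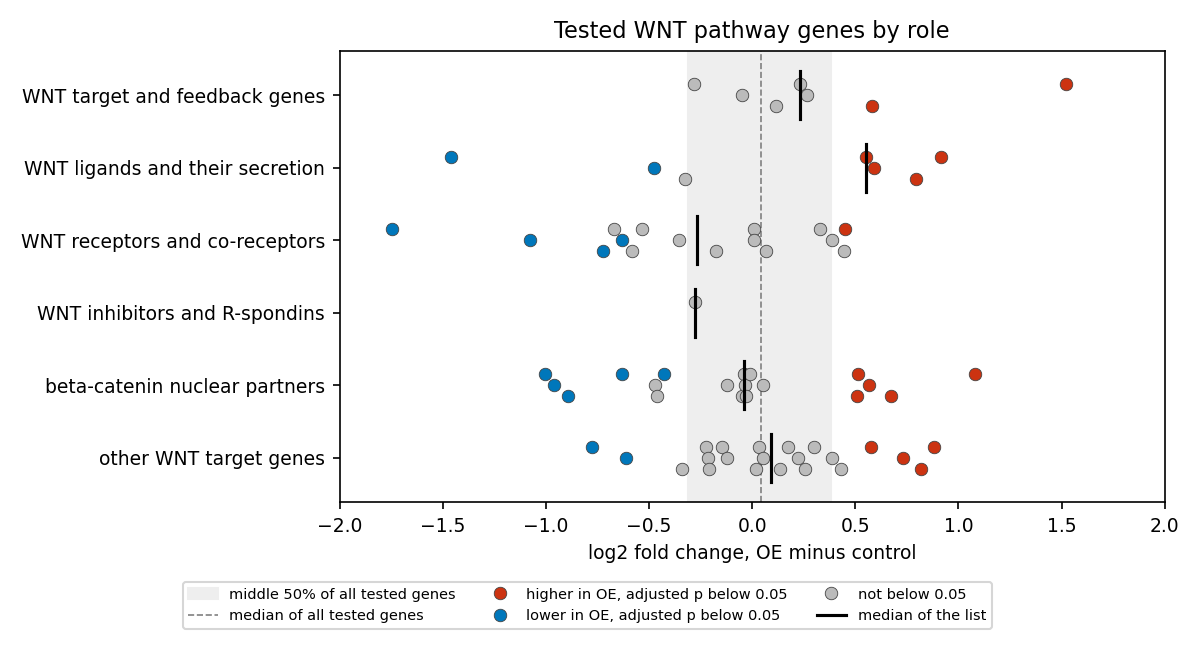
Log2 fold change (OE-labelled minus control) of each tested gene of the WNT pathway, 1 point per gene, in rows by role; red and blue points passed an edgeR adjusted p of 0.05, black bars are list medians, and the grey band and dashed line give the middle 50% and the median of all 10687 tested genes. The WNT target and feedback genes have 2 red points and no blue one, and the receptor row has 4 blue points and 1 red.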

How the data were processed

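RNA of 6 organoid libraries was sequenced with a QuantSeq 3′ forward kit, per the labels' protocols. The table deposited by the authors holds estimated counts, not normalized; the submitters' processing notes name STAR, HTSeq, mm10 and GRCm38 without settings. Annotation release, molecular identifiers, strand and multi-mapping treatment are not given in the sources used here. Fractional values (3.1% of those above 0) were rounded, whereas whole counts had been assumed in planning the test.

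Groups came from sample titles, and columns were matched through library names. All value columns were used. OE-labelled and control libraries were compared without covariates by edgeR 4.0.16 (R 4.3.3; filterByExpr, which asks for about 10 counts in 3 libraries, and TMM scaling), with Benjamini-Hochberg adjustment over 10687 genes. A standard error is the size of the log2 fold change over the root of the F statistic. Of the identifiers, 99.5% were found in GENCODE M21 (GRCm38), the source of positions, overlaps and GC content. Alternatives included DESeq2 1.42.0, limma-voom (limma 3.58.1), other scalings and filters, equal depth, a replicate block, libraries left out and loess offsets (span 0.5); the offsets for the last 500 bases and for length, the removal of mitochondrial genes and CT010467.1, and protein-coding genes only were added after seeing the data. The fit was tested on simulated data.

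The members and lists were chosen with earlier results of these data known. All members were named, and from each pathway list up to 2 genes with the smallest p in each direction; Tcf7l2, Lrp6, Ryk, relatives of the members and markers were named besides.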

Additional observations from a re-analysis of the deposited data

How the results depend on the processing

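Sox9 and Ascl2 were the only members called in any alternative. The count of 2 members fell to 1, Sox9, with DESeq2, with the GC offset, with the length offset, at an adjusted p below 0.01 and with at least 10 counts in every library (where Ascl2 was not tested), and was 1 to 2 without single libraries (1 without control replicate 1 or 2 or OE replicate 1 or 2). Over all genes, 3118 passed, 1996 with DESeq2, 1578 below 0.01 and 1748 to 3532 without single libraries; the fits without control replicate 1, 2 or 3 gave the lowest counts, 1893, 1837 and 1748. Of the other pathway genes 27 passed, 16 below 0.01 and 16 to 29 without single libraries (16 without control replicate 3). Signs changed only for members that did not pass: Axin2 to -0.021 with the replicate block and GC offset and -0.005 to 0.46 without single libraries; Rnf43 to -0.13 with the GC offset, with that offset and the block, and with the offset for the last 500 bases without a block; Znrf3 to 0.11 with the offset for the last 500 bases; and Tcf7, from -0.26 to 0.079 without single libraries (0.03 without control replicate 2 and 0.079 without OE replicate 1). For 22 single genes, the alternatives gave 411 values on the same side of the threshold and of 0, 39 that missed it and 8 of opposite sign; the cause was not tested.

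Equal replicate numbers correlated at 0.098, 0.018 and 0.07 in their deviations from the group means. None was above 0.1, and unequal numbers gave -0.112 to 0.042. Of the 6 libraries, 5 correlated best with their own number. These values cannot settle whether a number marks something shared. The main fit used no replicate block, as the labels do not say what a number marks. With the replicate block 3112 genes, 2 members (Ascl2 1.54, Sox9 0.57) and 28 other pathway genes passed. Depth limits Nkd1, Lef1, Notum and Tcf7, at 5 to 63 counts over all libraries.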
